A study of Rattus norvegicus with 48 samples.

Results

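The genes described here encode the proteins of the cytosolic ribosome and were chosen by their names. Fitting names were Rpl or Rps with a number, with or without a suffix (a, x, y or l, then any number), and Rplp0, Rplp1, Rplp2 and Rpsa. A gene with such a name was a member if it averaged at least 10 CPM over all 48 libraries. CPM are the gene's counts scaled to a common library total. Of 32285 gene identifiers, 83 names fitted, and 70 of them passed the limit. These 70 comprised 44 genes of the large subunit and 26 of the small subunit. The members with the lowest means were Rpl5l1 at 10.8 CPM and Rps4y2 at 13.2 CPM, and the names just under the limit were Rps4x at 8.05 CPM and Rps6 at 4.92 CPM. In all, 13 names fell under the limit, among them the paralogs Rpl10l at 1.26 CPM, Rpl3l at 0.265 CPM and Rpl39l at 0.128 CPM. The highest means were those of Rps3a at 822 CPM, Rplp0 at 816 CPM and Rpl4 at 776 CPM, and 60 members averaged over 100 CPM.

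The lungs came from 48 healthy male Sprague-Dawley rats, and each library carried its own animal number. Exposed rats had inhaled, with the whole body in the chamber, fracking sand dust at 30 mg/m3 together with diesel exhaust particles at 1.0 mg/m3, for 6 hours a day on 4 days. Air rats had breathed filtered air on the same plan. Groups were taken at 1, 7 and 27 days, with 8 exposed and 8 air libraries at each time. The RNA came from a piece of whole lung and the libraries were made from polyadenylated RNA, so fewer cells rich in a transcript and less of that transcript per cell cannot be told apart.

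The ribosome is the machine that makes protein. Its small subunit reads the messenger RNA, and its large subunit joins amino acids. The cell makes the proteins of both subunits in matched amounts, since a ribosome holds them in fixed proportion and unassembled ones are degraded. Their mRNAs are known in mammals as TOP mRNAs, because they begin with a cytosine followed by an unbroken run of pyrimidines, the terminal oligopyrimidine motif. Through this motif the kinase complex mTORC1 and the RNA-binding protein Larp1 control how much of each mRNA is translated and how much is stored.

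The starts of some members are shown first, since the motif is what the family's mRNAs are known for and it was not used to choose them. Each line gives the 15 bases before and the first 15 bases from the annotated transcript start, 5′ to 3′ on the gene's strand, from RefSeq on the rat build GRCr8. Capitals mark the unbroken pyrimidine run that begins at the start where it is a cytosine and at least 4 further pyrimidines follow.
Rpl31, chr9:49143096-49143125, plus strand: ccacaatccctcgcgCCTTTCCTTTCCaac
Rpl37a, chr9:81748076-81748105, plus strand: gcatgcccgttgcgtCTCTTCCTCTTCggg
Rpl28, chr1:78083518-78083547, minus strand: ccccgcccctagtgtCTTTCTTTCCgtctc
Rps15, chr7:10068101-10068130, minus strand: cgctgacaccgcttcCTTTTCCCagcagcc
Rplp0, chr12:46718376-46718405, minus strand: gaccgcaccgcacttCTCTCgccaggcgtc
Rps2, chr10:14251833-14251862, plus strand: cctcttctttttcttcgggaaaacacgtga
Rpl7l1, chr9:21695703-21695732, plus strand: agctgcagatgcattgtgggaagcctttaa
Rps27l, chr8:76443643-76443672, plus strand: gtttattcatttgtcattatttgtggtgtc
Rpl31 and Rpl37a had the longest runs of the members, at 12 bases each. Rpl28 and Rps15 carry the motif and were among the members with the largest differences at day 27. Rps2 shows a case in which the pyrimidines lie just before the annotated start, and Rpl7l1 and Rps27l are paralog-named genes without the motif. Rpl7l1 and Rps27l were among the members with the flattest slopes on the other members, described below. Rps2, also without the motif at its annotated start, had a slope of 0.94. Whether the motif bears on these slopes was not tested.

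Of the 70 members, 54 matched exactly 1 RefSeq promoter entry by symbol. An oligopyrimidine start was present in 21 of these 54 members (38.9%), against 398 of 17487 other protein-coding genes (2.28%). A run of at least 7 pyrimidines within 10 bases of the start, on the gene's strand, was present in 40 members (74.1%), against 18.3% of the other genes. The motif CCGGAA, the core bound by ETS factors, occurred on either strand of the 300-base window from 250 bases before to 50 bases after the start in 50% of members and 18.8% of other genes. The core AAGATGG of the factor YY1 occurred in 16.7% of members and 7.67% of others, and the GC box GGGCGG in 55.6% and 43.5%. The TATA box TATAAA occurred about as often in both, in 13% of members and 13.3% of others. These are matches of letters in a window, and no binding was measured.

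**Figure D1:**
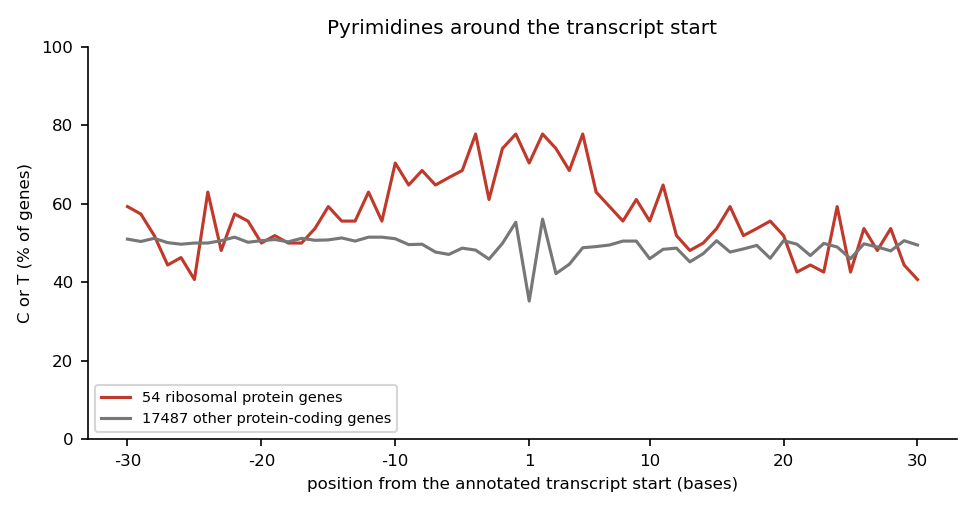
Share of genes with C or T at each position from 30 bases before to 30 bases after the annotated transcript start (x axis, bases; y axis, percent of genes), for 54 ribosomal protein genes (red) and 17487 other protein-coding genes (grey). The members lie above the other genes around the start, where the other genes dip at the first base.

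Defining genes of lung cells were abundant, with means of 8230 CPM for Sftpc, a surfactant gene of alveolar type 2 cells, and 2200 CPM for Ager of type 1 cells. The libraries held 9445675 to 14400317 expected counts (median 12004516). The members held 2% to 3.24% of these counts. In 4 pairs of libraries the counts lay closer to each other than in any other of the 168 pairs within a group, at 1.45 to 1.72 times counting noise. These were exposed day 1 libraries 1 and 4, exposed day 7 libraries 3 and 6, air day 7 libraries 1 and 4, and air day 27 libraries 3 and 6, numbered in the order deposited. They differed by more than counting noise and were kept as separate libraries. Beyond each label's own animal number, the sources used here do not say whether a pair is 2 animals or repeat libraries, so the 8 libraries of a group are counted as 8 animals. The calls of day 27 and of the comparisons between days are also given with the pairs summed and with these libraries left out.

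The ribosomal protein level of a library, taken as the mean log2 CPM of the 70 members, described how the family moved as a whole. At day 1 the level had a lowest, median and highest value of 7.79, 7.89 and 8.13 in exposed lungs and 7.82, 7.93 and 8.11 in air lungs. At day 7 they were 7.74, 7.79 and 7.84 in exposed lungs and 7.74, 7.78 and 7.92 in air lungs. At both of these days the exposed and air ranges overlapped almost fully. At day 27 they were 7.89, 7.98 and 8.17 in exposed lungs, against 7.96, 8.21 and 8.47 in air lungs. The groups overlapped, although 5 of the 8 air libraries lay above every exposed library. The same 5 air libraries of day 27 lay above every library of days 1 and 7, and the air day 27 group had the widest spread, with an SD of 0.171 against 0.0878 in exposed lungs of that day. The share of counts in members at day 27 was 2.25%, 2.37% and 2.72% in exposed lungs, against 2.34%, 2.72% and 3.24% in air lungs.

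**Figure D2:**
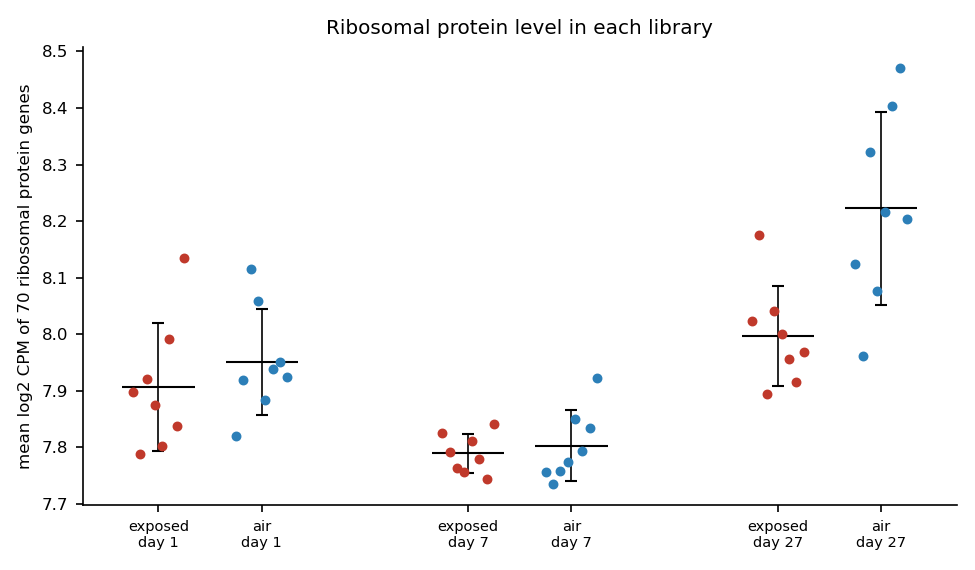
Ribosomal protein level of each library (y axis, mean log2 CPM of the 70 members) by group (x axis), exposed in red and air in blue, with the mean (line) and SD (bars) of 8 libraries. The air libraries of day 27 reach from 7.96 to 8.47, and all other groups lie at or below 8.17.

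At day 1 the question was whether the family differed at the earliest time. No member passed an adjusted p of 0.05 (edgeR quasi-likelihood test, Benjamini-Hochberg over all genes), against 0.0279% of all genes called (4 of 14314). By edgeR 9 of 70 members had an unadjusted p under 0.05, against 1241 of 14314 genes. DESeq2 and limma-voom also called 0 members. The median log2 fold change was -0.06 and 56 members lay below 0. The smallest p was that of Rps25, with 155, 176 and 188 CPM in exposed lungs and 172, 189 and 219 CPM in air lungs (log2 fold change -0.14 ± 0.0494, edgeR adjusted p = 0.414). Rpl9, a large-subunit protein, came next with 368, 422 and 521 CPM in exposed lungs and 458, 485 and 531 CPM in air lungs (log2 fold change -0.16 ± 0.0567, edgeR adjusted p = 0.447). Rps15a stood at a log2 fold change of -0.14 (adjusted p = 0.456 by edgeR) and Rpl26, known to bind the p53 mRNA in human cells, -0.12 (edgeR adjusted p = 0.50). The groups overlapped for all 4 genes. No gene of any other list described here passed at day 1 or day 7.

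At day 7 no member passed the test and no gene of 14259 did (0%). By edgeR 5 of 70 members had an unadjusted p under 0.05, against 1208 of 14259 genes. DESeq2 and limma-voom called 0 members. The median log2 fold change of the members was 0.00, with 41 below 0, and single members ran from -0.14 to 0.11. Rpl22l1 had the smallest p, with 39.1, 40.4 and 47.0 CPM in exposed lungs and 40.7, 47.3 and 51.1 CPM in air lungs (log2 fold change -0.14 ± 0.0519, edgeR adjusted p = 0.471). Rps16 and Rpl35a had log2 fold changes of -0.10 and -0.11, and Rpl36 one of 0.11 (edgeR adjusted p = 0.513, 0.514 and 0.57). The name Rpl35a belongs to 5 identifiers, and the one used throughout held 47.2% of its counts. The 8 libraries of each day 7 group lay closer together than at the other days, with SDs of the ribosomal protein level of 0.0347 in exposed and 0.0625 in air lungs.

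Day 27 was the only time at which single members passed the test. Ribosomal protein genes were lower in exposed than in air lungs in both subunits, by small amounts: 36 of 70 members (51.4%) were lower and 0 were higher at an adjusted p under 0.05 by edgeR. Over all 14192 genes tested, 3.33% were lower and 2.18% were higher. The median log2 fold change of the members was -0.23, against -0.008 over all genes, and 68 of 70 members lay below 0. The large subunit had 23 of 44 members lower (52.3%, median log2 fold change -0.22) and the small subunit 13 of 26 (50%, median -0.23). For 44 members all 8 exposed libraries lay below the mean of the air libraries, but no member had groups that did not overlap. How many of all genes had either trait was not counted, so these counts do not set the members apart. The members were described as a family, and no p was computed for the family as a whole.

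The called count depended on single libraries and on the fit. It was 55 in the fit of all 48 libraries, against 1211 of 14852 genes lower. With 1 surrogate variable it was 7, against 40 of 14192 genes, and the members' median was -0.12. With the close pairs summed 2 members were lower, Rps29 and Rpl28, against 21 of 14255 genes. Without the libraries of the close pairs 0 were, against 0 of 14309 genes. In that fit 44 members had an unadjusted p under 0.05, against 2721 genes, and the members' median was -0.17. Leaving out 1 library gave 0 members (without exposed library 3) to 57 (without air library 2), against 5 of 14264 and 1018 of 14253 genes. Without exposed library 3, 59 members had an unadjusted p under 0.05, against 3050 genes. Without exposed library 1, 5, 6, 7 or 8 the count was 10, 19, 14, 4 and 2. Genes lower among all tested were then 84, 266, 130, 58 and 27. Without air library 3, 5, 6, 7 or 8 the members' count was 3, 16, 2, 9 and 11, and that of all genes 43, 139, 14, 73 and 74. The median over the members stayed between -0.26 and -0.19 in all 16 of these fits.

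Among the small-subunit genes, Rps29, a zinc-binding protein of the head of the subunit, had the smallest p. It stood at 303, 333 and 379 CPM (lowest, median, highest) in exposed lungs, against 367, 443 and 566 CPM in air lungs. Its log2 fold change was -0.43 ± 0.073 (SE, adjusted p = 0.0208, edgeR, 8 of 8 exposed libraries below the air mean). The ranges overlapped only between the highest exposed and the lowest air library. Rps25, which is needed for translation from some viral internal entry sites, had 174, 191 and 218 CPM in exposed lungs and 204, 239 and 283 CPM in air lungs, a log2 fold change of -0.31 ± 0.0639 (adjusted p = 0.0264 by edgeR). Rps2, a protein of the mRNA entry tunnel, stood at 399, 462 and 503 CPM in exposed lungs, against 487, 561 and 706 CPM in air lungs (log2 fold change -0.34 ± 0.0731, edgeR adjusted p = 0.0288). The overlap was wider than for Rps29, since exposed libraries at 499 and 503 CPM lay above air libraries at 487 and 494 CPM.

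Rps15 and Rps16, which lie near the decoding site, were lower as well, with wider spreads. Rps15 had 233, 245 and 303 CPM in exposed lungs and 254, 327 and 418 CPM in air lungs (log2 fold change -0.39 ± 0.0859, edgeR adjusted p = 0.0288). Rps16 had 357, 403 and 456 CPM in exposed lungs and 382, 527 and 713 CPM in air lungs (log2 fold change -0.40 ± 0.105, edgeR adjusted p = 0.0382). Rps27, whose paralog is Rps27l, had 278, 314 and 378 CPM in exposed lungs and 324, 372 and 461 CPM in air lungs, a log2 fold change of -0.26 ± 0.0708 (adjusted p = 0.0396 by edgeR). Rps19, the gene most often mutated in the human anaemia Diamond-Blackfan, had a log2 fold change of -0.34 ± 0.118 and an edgeR adjusted p of 0.0898. Its difference was as large as that of Rps2, with a larger SE. Rpsa, the laminin receptor protein of the small subunit, had 670, 710 and 803 CPM in exposed lungs and 664, 817 and 931 CPM in air lungs (log2 fold change -0.17, edgeR adjusted p = 0.0861).

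Among the large-subunit genes, Rpl28 had the smallest p. It stood at 189, 210 and 224 CPM in exposed lungs, against 215, 277 and 340 CPM in air lungs, a log2 fold change of -0.39 ± 0.0696 (adjusted p = 0.0208 by edgeR). Each of the 8 exposed libraries was under the mean of the air group.

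Rpl30, which in yeast binds its own transcript, had the largest difference of any member. It stood at 131, 145 and 202 CPM in exposed lungs, against 139, 234 and 264 CPM in air lungs, a log2 fold change of -0.53 ± 0.117 (adjusted p = 0.0288 by edgeR). Its lowest air library, library 2, stood apart from the others of its group, whose lowest value was 205 CPM. Rpl39, one of the smallest ribosomal proteins, which lies in the exit tunnel of the large subunit, had 58.6, 74.8 and 90.1 CPM in exposed lungs and 80.6, 93.0 and 118 CPM in air lungs (log2 fold change -0.37 ± 0.0888, edgeR adjusted p = 0.0334). The name Rpl39 belongs to 7 identifiers, and the one used here held 61.8% of its counts, so that reads of near-identical copies may be split between them. Rpl5l1, named for its likeness to Rpl5, the carrier of 5S rRNA, had 9.91, 10.3 and 12.3 CPM in exposed lungs and 11.0, 13.2 and 16.7 CPM in air lungs (log2 fold change -0.35 ± 0.0826, edgeR adjusted p = 0.0313), and how its reads were divided from those of Rpl5 is uncertain. Rpl34, a large-subunit protein, had 132, 145 and 165 CPM in exposed lungs and 149, 179 and 220 CPM in air lungs (log2 fold change -0.33 ± 0.0725, edgeR adjusted p = 0.0288). Rpl41, which encodes one of the shortest proteins known, had 401, 444 and 560 CPM in exposed lungs and 450, 549 and 694 CPM in air lungs (log2 fold change -0.29 ± 0.0805, edgeR adjusted p = 0.0433).

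The proteins of the stalk, which recruits translation factors, did not all pass the test. Rplp1 had 571, 611 and 697 CPM in exposed lungs and 632, 721 and 940 CPM in air lungs, a log2 fold change of -0.29 ± 0.0691 (adjusted p = 0.0313 by edgeR). Rplp0, the base of the stalk and a common reference gene in PCR, had 751, 811 and 939 CPM in exposed lungs and 775, 928 and 1150 CPM in air lungs (log2 fold change -0.22 ± 0.0692, edgeR adjusted p = 0.0644). Rplp2 had a log2 fold change of -0.16 ± 0.109 (adjusted p = 0.372 by edgeR). The 3 genes lay on the same side of 0 with overlapping errors.

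Some of the most counted large-subunit genes lay nearer to 0. Rpl3, which lies close to the site of peptide bond formation, had 669, 699 and 734 CPM in exposed lungs and 664, 758 and 855 CPM in air lungs (log2 fold change -0.11 ± 0.049, edgeR adjusted p = 0.17). Rpl4, Rpl5 and Rpl7 had log2 fold changes of -0.07, -0.12 and -0.11 and edgeR adjusted p of 0.378, 0.153 and 0.19. These 3 were chosen after their values were seen. Rpl13a, known outside the ribosome as part of a complex that silences inflammatory mRNAs in human myeloid cells, had 518, 545 and 663 CPM in exposed lungs and 533, 638 and 748 CPM in air lungs (log2 fold change -0.17, edgeR adjusted p = 0.115).

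Of the members named as paralogs with the suffix l, only Rpl5l1 passed the threshold. Rps27l, a paralog of Rps27 known as a p53 target in human cells, had 36.8, 39.8 and 41.6 CPM in exposed lungs and 38.4, 45.5 and 52.0 CPM in air lungs (log2 fold change -0.19, edgeR adjusted p = 0.0691). Rpl22l1, the paralog of Rpl22, had 46.3, 48.6 and 58.0 CPM in exposed lungs and 46.4, 56.7 and 69.9 CPM in air lungs (log2 fold change -0.21, edgeR adjusted p = 0.0883). Rpl7l1 had 29.3, 33.2 and 39.5 CPM in exposed lungs and 32.2, 35.4 and 36.6 CPM in air lungs (log2 fold change -0.04, edgeR adjusted p = 0.719). The exposed range of Rpl7l1 held the whole air range. The 2 members above 0 were Rps4y2 at a log2 fold change of 0.11 ± 0.239 (adjusted p = 0.794 by edgeR) and Rpl37 at 0.04 ± 0.242 (edgeR adjusted p = 0.932), both with wide errors.

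**Figure D3:**
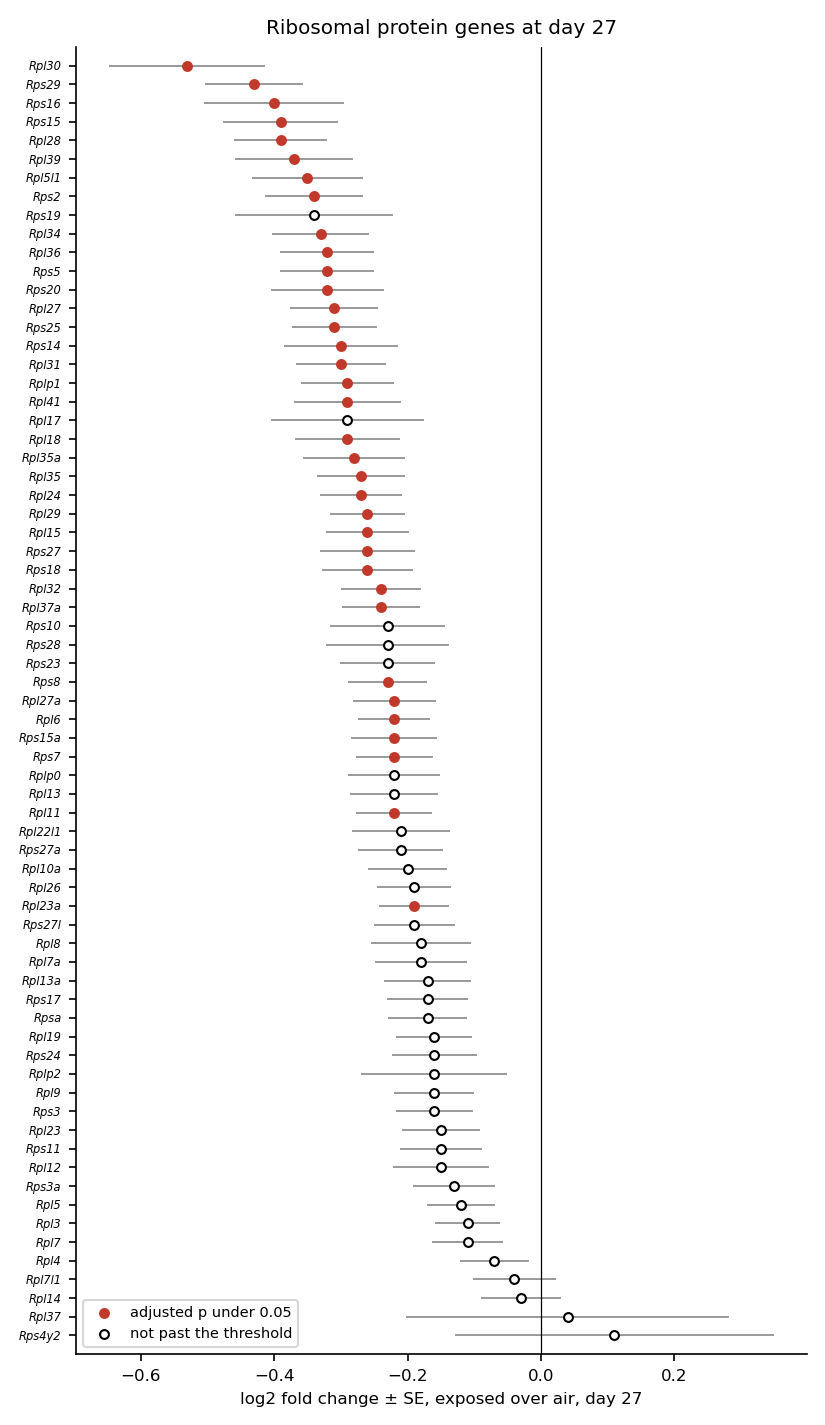
Log2 fold change, exposed over air, at day 27 (x axis) with its SE for the members reported (y axis, ordered by value), with 8 libraries a group. Filled red points passed an adjusted p of 0.05 in edgeR. They run from -0.53 to -0.19, and only Rpl37 and Rps4y2 lie above 0.

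Markers of B cells moved beside the members at day 27. Of 5 B cell markers, Cd79a at a log2 fold change of -0.80 ± 0.205 (adjusted p = 0.0373 by edgeR) and Fcrla at -0.71 ± 0.159 (edgeR adjusted p = 0.0288) were lower in exposed lungs, and all 5 lay below 0 with a median of -0.71. The summed CPM of the 5 markers ran from 72.5 to 114 in exposed lungs and from 88.6 to 225 in air lungs, and none of the 5 was at 0. The highest sums, 220 and 225, were those of air libraries 3 and 6, the close pair, whose ribosomal protein levels were 8.32 and 8.40, and the other 6 air libraries ran from 88.6 to 157. With the pair summed to 1 library the members' median log2 fold change was -0.21. Of 5 T cell markers 0 passed the test, with all 5 below 0 and a median of -0.26, and of 4 neutrophil markers 0 passed, with 2 below 0. Every tested marker of club cells (3, median -0.37), heart muscle (5, median -0.26) and skeletal muscle (2, median -0.25) also lay below 0. So did those of alveolar type 1 cells (4, median -0.12) and alveolar macrophages (4, median -0.08). Below 0 lay 2 of 5 type 2, 2 of 4 red cell, 3 of 4 endothelial, 1 of 2 ciliated and 5 of 13 mitochondrial genes. Of the lists other than B cells, Tppp3 of 2 ciliated, Tie1 of 4 endothelial and Mt-nd3 of 13 mitochondrial genes were lower. The alveolar, club, macrophage, muscle and red cell lists had 0 genes that passed. None of these calls was made with the close pairs summed (Cd79a at a log2 fold change of -0.70 with an edgeR adjusted p of 0.0686, Fcrla at -0.64 with 0.059) or without the libraries of the close pairs (Cd79a -0.52 with 0.138, Fcrla -0.51 with 0.124). The part of these cells in the members' difference was not tested.

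The other genes of protein synthesis were mixed at day 27. Of 3 tested components of the ribosome that carry other names, the large-subunit gene Rpl36al was lower (log2 fold change -0.24 ± 0.0682, edgeR adjusted p = 0.0456). Gnb2l1, the scaffold protein also called Rack1, had -0.19 ± 0.058 (edgeR adjusted p = 0.0593). Of 22 translation factors and other genes known for TOP mRNAs, 2 were higher and 0 were lower, with 16 below 0 and a median of -0.09. The 2 were Eif3a, the scaffold of the initiation factor eIF3 (log2 fold change 0.21 ± 0.0414, edgeR adjusted p = 0.0208), and Pabpc1, the cytoplasmic poly(A)-binding protein (0.15 ± 0.0402, edgeR adjusted p = 0.0385). Of 41 genes of ribosome assembly and rRNA synthesis, 3 were lower and 0 higher, with a median of -0.05. They were Pes1 of the large-subunit assembly complex, Eif6, which keeps the subunits apart, and Polr1c, a subunit of RNA polymerases I and III, at log2 fold changes of -0.21, -0.24 and -0.33 (edgeR adjusted p = 0.0372, 0.0403 and 0.0348). Of 19 genes of mTORC1 and its circuit, 0 passed the test, and their median was 0.03. The calls of Rpl36al, Eif3a, Pabpc1, Pes1, Eif6 and Polr1c were all lost with the close pairs summed, where their edgeR adjusted p ran from 0.0512 (Eif3a) to 0.0828 (Rpl36al), and without those libraries, where it ran from 0.108 to 0.176. Their signs were the same in both of these fits.

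**Figure D4:**
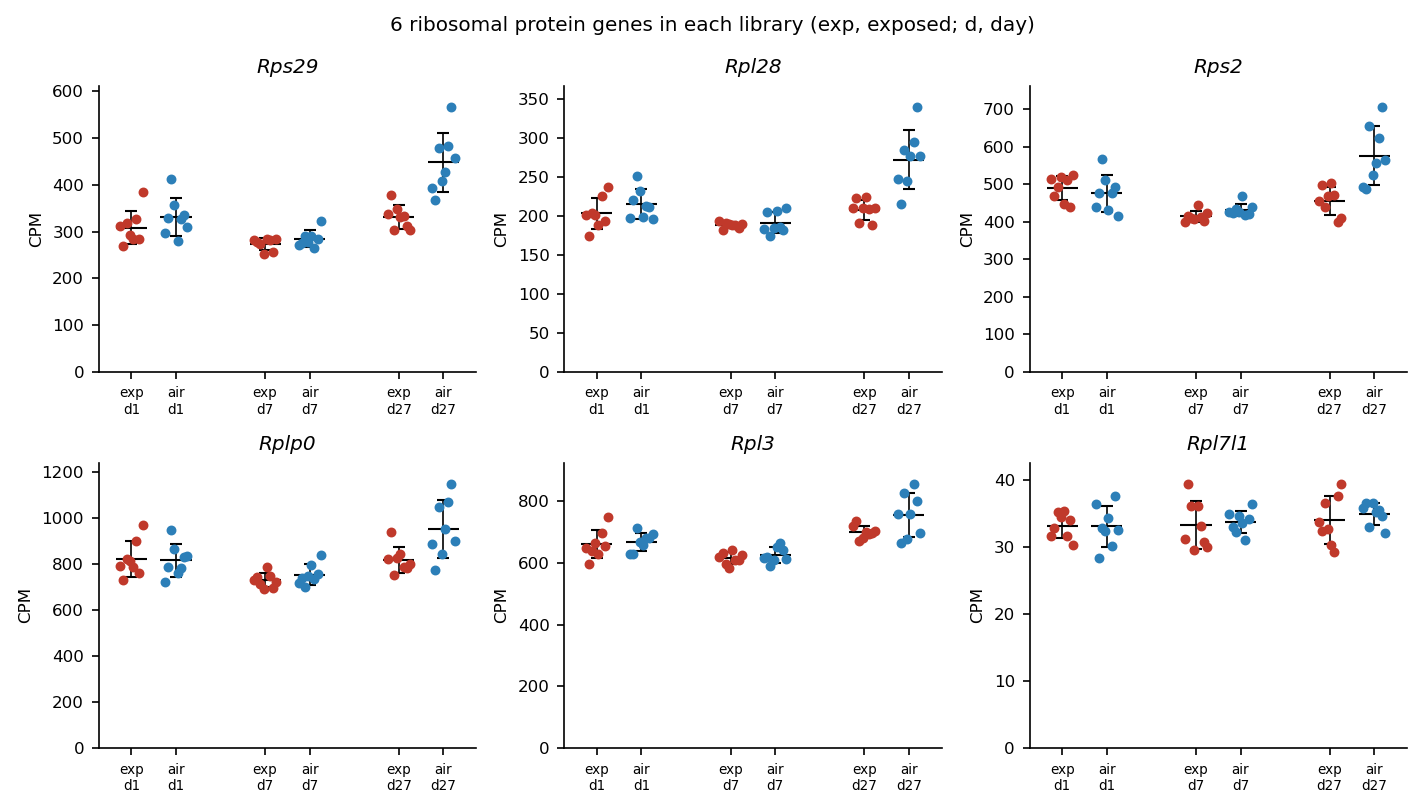
CPM (y axes, from 0) of 6 members in each library by group (x axes), exposed in red and air in blue, with mean (line) and SD (bars) of 8 libraries. Rps29, Rpl28 and Rps2 were lower in exposed lungs at day 27, where the air libraries reach 566, 340 and 706 CPM, and Rpl7l1 stays between 28.4 and 39.5 CPM in all 6 groups.

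Whether the exposure effect itself differed between days was tested in 1 fit of all 48 libraries. Between day 27 and day 1 the effect differed for 1 member, against 0.498% of all genes (74 of 14852). It was Rps2, whose effect was lower at day 27 by -0.38 ± 0.0845 log2 units (edgeR adjusted p = 0.0405). Rps2 had stood at 441, 503 and 524 CPM in exposed day 1 lungs and 415, 477 and 569 CPM in air day 1 lungs, so that the sign at day 1 was positive (log2 fold change 0.04, edgeR adjusted p = 0.89). The call was lost with the close pairs summed and without the libraries of the close pairs, where 0 members differed. All 70 members had a more negative effect at day 27 than at day 1, with a median difference of -0.18 against -0.007 over all genes. How many of all genes had a more negative effect was not counted. Of the members 35 had an unadjusted p under 0.05 by edgeR, against 2166 of 14852 genes. Without the libraries of the close pairs 66 members had a more negative effect, with a median difference of -0.14. There 18 members had an unadjusted p under 0.05 by edgeR, against 1595 of 14906 genes. The effects of day 27 and day 7 differed for 0 members, against 0.0202% of all genes, and limma-voom also called 0 members. By edgeR 48 members had an unadjusted p under 0.05, against 2206 of 14852 genes. The median difference over the members was -0.22. Without the libraries of the close pairs the median was -0.17, and 29 members had an unadjusted p under 0.05 by edgeR, against 1197 of 14906 genes. Day 7 minus day 1 gave 0 members, against 0% of all genes, with 0 calls by limma-voom and a median of 0.05. Here 2 members had an unadjusted p under 0.05 by edgeR, against 1114 of 14852 genes. The comparisons with day 27 share its libraries.

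The days were also compared within each treatment, in comparisons added after the library levels were seen. In exposed lungs 15 of 70 members were higher at day 27 than at day 1, against 5.87% of all genes, with a median log2 difference of 0.10. In air lungs 63 of 70 were higher at day 27 than at day 1, against 9.15% of all genes, with a median of 0.27. With the close pairs summed the counts were 13 in exposed and 59 in air lungs, against 744 and 1059 of 14878 genes. Without those libraries they were 13 in exposed and 51 in air lungs, against 677 and 742 of 14906 genes. Against day 7, 47 of 70 members were higher at day 27 in exposed lungs (6.36% of all genes, median log2 difference 0.22) and 67 of 70 in air lungs (20% of all genes, median 0.44). These counts were 40 in exposed and 67 in air lungs with the close pairs summed, against 752 and 2424 of 14878 genes. Without those libraries they were 37 in exposed and 65 in air lungs, against 542 and 1668 of 14906 genes. Members were thus higher at day 27 than at day 7 in both treatments. Rps29 for example had medians of 302, 280 and 333 CPM at days 1, 7 and 27 in exposed lungs, and of 328, 281 and 443 CPM in air lungs. No sequencing batch is given in the sources used here, and day and batch cannot be told apart in these comparisons.

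Within groups the members rose and fell together from library to library. The slope of each member on the mean of the other 69 members, with the 6 group means taken out, had a median of 0.96, and 52 of 70 slopes lay between 0.8 and 1.2. These slopes are a description, since the members share libraries and normalization. The median SD of a member within groups was 0.116 log2 units, and 0.0533 once the slope was taken out. The steepest slopes were those of Rps19 at 1.5, Rps15 at 1.43, Rps28 at 1.42, Rplp2 at 1.33 and Rps14 at 1.28, of which 4 are proteins of the small subunit. The median slope was 0.96 in each of the subunits. The flattest were those of Rpl7l1 at -0.28 ± 0.165 (SE), Rpl3 at 0.60 ± 0.0759, Rpl5l1 at 0.66 ± 0.232, Rps27l at 0.72 ± 0.156 and Rpl23 at 0.75 ± 0.0723. Rpl7l1, whose yeast homologue acts in ribosome assembly and not in the mature ribosome, was the only member with a slope below 0. Rps4y2, Rpl37 and Rpl30 varied most on their own, with SDs of 0.49, 0.341 and 0.205 after the slope was taken out. Rpl37 reached 67.1 CPM in 1 exposed day 27 library, against a median of 21.9 CPM in that group.

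The 21 members with an oligopyrimidine start had a median slope of 1.1, with a range of 0.82 to 1.43, and the 33 without one a median of 0.93, with a range of -0.28 to 1.5. The range with such a start lay within the range without it. Their median log2 fold changes at day 27 were -0.26 with such a start and -0.22 without it. The split depends on the annotated first base. Rpl29 and Rpl27a, whose annotated start is a T followed by further pyrimidines, were counted as without it. Of the 54 members, 40 had a pyrimidine run near the start, so the 33 are not members shown to lack the motif.

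Outside the family, many genes moved with the ribosomal protein level between libraries of the same group. With the group means taken out, 3058 of 14782 other genes (20.7%) rose with the level and 2999 (20.3%) fell at an adjusted p under 0.05 (edgeR). A slope of 1 means that the gene rose by the same fold as the level. In the 24 exposed libraries alone 742 rose and 1447 fell, and in the 24 air libraries alone 2120 and 2641. The 2 libraries farthest from their group mean were air day 27 libraries 2 and 7, and without them 2180 rose and 2403 fell, of which 2107 and 2367 were among the genes called with all libraries.

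Genes of protein synthesis were looked at by list. Of 4 other ribosome components 3 rose, among them Rpl36al at a slope of 1.06 ± 0.0882 (edgeR adjusted p = 1.11e-12) and Gnb2l1 at 0.87 ± 0.0673 (edgeR adjusted p = 1.33e-13). Fau averaged 0.55 CPM and was not past the threshold (edgeR adjusted p = 0.241). Of 22 translation factors and other genes known for TOP mRNAs, 17 rose and 1 fell. The elongation factor subunits Eef1b2, Eef1g and Eef1d had slopes of 0.98 ± 0.0876, 0.74 ± 0.0688 and 1.02 ± 0.0978, and Naca, part of the complex that receives nascent chains, 0.75 ± 0.0722. Their edgeR adjusted p were 2.97e-12, 7.5e-12, 1.58e-11 and 1.49e-11. These slopes were of the same sign in exposed and in air libraries, for Eef1b2 1.09 and 0.88. The gene that fell was Eif3a at -0.31 ± 0.0893 (edgeR adjusted p = 0.00439), the same gene that was higher in exposed lungs at day 27.

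Genes of ribosome assembly were mixed. Of 41 tested, 16 rose and 4 fell. Nop10 and Dkc1, proteins of the particles that make pseudouridine in rRNA, had slopes of 1.05 ± 0.144 and 0.90 ± 0.14, Eif6 0.99 ± 0.136 and Nob1, the nuclease that trims the small-subunit rRNA, 0.75 ± 0.125 (edgeR adjusted p = 6.97e-08, 8.69e-07, 8.18e-08 and 3.5e-06). The 4 that fell were Utp15, Polr1a, Utp20 and Tsr1, at slopes of -0.66, -0.51, -0.48 and -0.53. They encode small-subunit assembly factors and the large subunit of RNA polymerase I.

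Of 19 genes of mTORC1 and its circuit, 6 rose and 8 fell. Those that fell included the kinase gene Mtor at -0.57 ± 0.0986, its inhibitor Deptor at -2.26 ± 0.409, the translation repressor Eif4ebp2 at -0.68 ± 0.129 and Sesn3, an inhibitor of the pathway in starved cells, at -2.19 ± 0.231 (edgeR adjusted p = 6.95e-06, 1.38e-05, 2.9e-05 and 1.4e-10). Larp1, which binds the oligopyrimidine start, also fell, at -0.67 ± 0.142 (edgeR adjusted p = 0.000146). Those that rose included Eif4ebp1, the paralog of Eif4ebp2, at 1.12 ± 0.215, and the transcription factor partners Myc at 0.85 ± 0.257 and Max at 0.70 ± 0.134 (edgeR adjusted p = 3.83e-05, 0.00636 and 2.97e-05). Myc had a slope of 0.2 in exposed and 1.19 in air libraries. Activators and inhibitors of the pathway thus stood on both sides of 0. These are transcript levels, and no protein or kinase activity was measured.

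Genes outside the family were also split by their start. Of 233 tested genes outside the family with such a start and a single identifier, 25.8% rose and 20.2% fell with the level. Of 9188 without one, 22.1% rose and 20.8% fell. The difference between these shares was not tested.

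**Figure D5:**
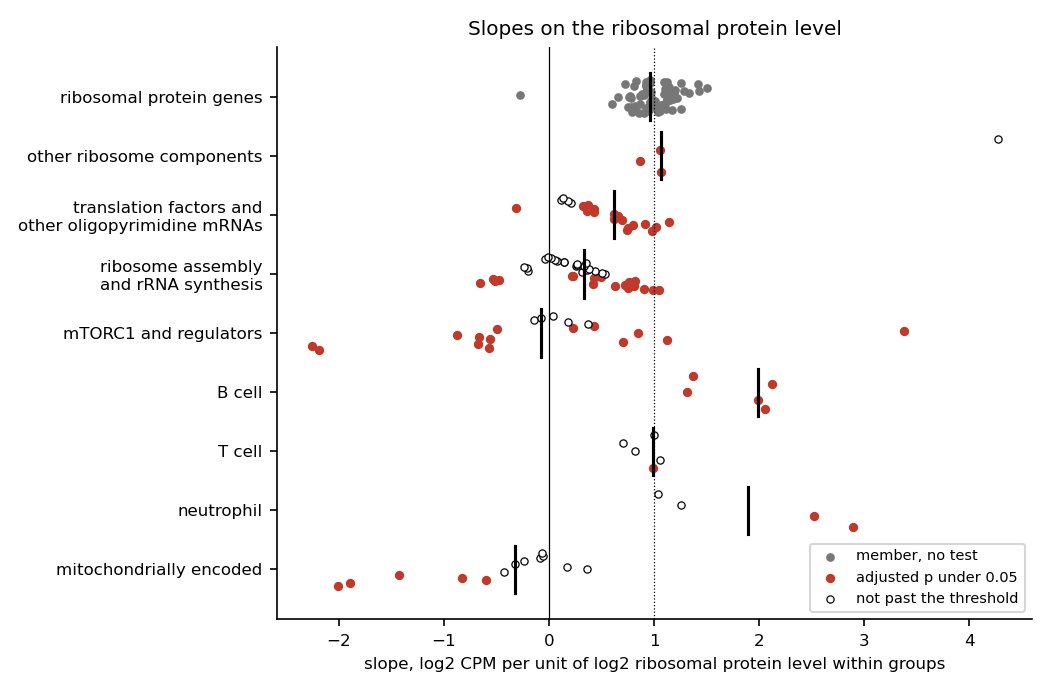
Slope of each gene on the ribosomal protein level within groups (x axis, log2 CPM per unit of log2 level) for the members and for 8 gene lists (y axis), with the median of each as a black bar. A dotted line marks 1. The translation factors lie mostly between 0 and 1, with 17 of 22 rising, and all 5 B cell markers rose.

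Markers of cell types moved with the level too. All 5 B cell markers rose, with Cd79a at a slope of 2.06 ± 0.378 and Cd79b at 1.99 ± 0.499 (edgeR adjusted p = 2e-05 and 0.0012), and their median slope was 1.99. Cd79a had a slope of 1.31 in exposed and 2.38 in air libraries. Of 4 neutrophil markers, S100a8 and S100a9 rose, at 2.89 ± 0.788 and 2.52 ± 0.742 (edgeR adjusted p = 0.00292 and 0.00553), and of 5 T cell markers Cd2 did. Of 4 markers of alveolar type 1 cells 3 rose, and of 5 markers of type 2 cells the surfactant genes Sftpc and Sftpb rose while Lamp3 and Abca3 fell. Of 4 endothelial markers Cldn5 rose while Tek and Cdh5 fell, and of 2 ciliated cell markers Dnah5 fell. No marker of club cells, alveolar macrophages, heart muscle, skeletal muscle or red cells was called. Of 13 genes of the mitochondrial genome 5 fell and 0 rose. The part of cell makeup in the members' shared movement was not tested.

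The 10 called genes with the steepest rise, among those averaging at least 10 CPM, included 3 stored in mast cells, the proteases Mcpt1 and Mcpt2 and the carboxypeptidase Cpa3, at slopes of 3.21 ± 0.919, 2.95 ± 0.851 and 2.67 ± 0.738 (edgeR adjusted p = 0.00443, 0.00465 and 0.00328). Gzmb, the granzyme of killer cells, had 2.68 ± 0.644, and Igkc, an immunoglobulin light chain, 2.57 ± 0.735 (edgeR adjusted p = 0.000805 and 0.00449). The slope of Igkc was 0.89 in exposed and 3.35 in air libraries. Others were the nonmuscle myosin gene Myh9, Ddit4, an inhibitor of mTORC1 induced by stress, at 3.38 ± 1.06 (edgeR adjusted p = 0.00891), the class I histocompatibility gene RT1-CE5, and S100a8.

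Among the 10 genes with the steepest fall, Hipk2, a nuclear kinase, had a slope of -3.71 ± 0.327, Itga1, a collagen receptor subunit, -3.71 ± 0.313, Lpp, a focal adhesion protein, -4.84 ± 0.483, and Zbtb20, a transcriptional repressor, -6.21 ± 0.673 (edgeR adjusted p = 5.07e-12, 2.15e-12, 6.31e-11 and 6.14e-10). Hipk2 had a slope of -3.50 in exposed and -3.80 in air libraries. The others were Col15a1, a basement membrane collagen, at -9.57 ± 1.67 (edgeR adjusted p = 1.04e-05), the chaperone gene Hsp90aa1, Cttn, Dgkh, the splicing factor gene Rbm39 and Ogn. All 10 had negative slopes in the exposed libraries, in the air libraries and without the 2 libraries farthest from their group mean.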

How the data were processed

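The authors deposited expected counts per gene, which are fractional where a fragment fits several transcripts, as 3 unnormalized tables (1 per day) of 32285 identifiers. Salmon 1.10.1, STAR 2.6.1d, Trim Galore 0.6.7, cutadapt 3.4, bcl2fastq 2.19 and the build Rnor_6.0 are listed in the submitters' processing notes, and settings are not given in the sources used here. Per the labels' protocols, libraries were made with a stranded kit for mRNA. On average 5.58% of a library's values were not whole (tolerance 1e-06), and values were rounded before use. Groups and days came from the labels. Library numbers follow the deposited order and pair nothing.

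Of identifiers that share a name (4671 in all), the one with the most counts stood for it. CPM used TMM factors over 48 libraries, and log2 CPM a prior count of 2. Each day was tested with edgeR 4.0.16 in R 4.3.3 (filterByExpr, robust quasi-likelihood F test, Benjamini-Hochberg over all genes tested, threshold 0.05), and days were compared in 1 fit of 48 libraries. SE is the log2 value divided by the square root of F. Slopes of other genes on the ribosomal protein level, centred by group, came from edgeR with 6 group terms, and slopes of members from least squares on the other members, with no test. Simulated counts with 200 changed genes were used to test the scripts. Counts per library limit precision for the lowest members.

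Alternatives were RLE size factors, normalization without the members, other filters on low counts, DESeq2 1.42.0, limma-voom (limma 3.58.1), 1 fit of all libraries, covariates, 1 surrogate variable from sva 3.50.0, identifiers of a name summed, close pairs (under 2 times counting noise over genes with at least 20 counts) summed, and each library left out. Leaving out the libraries of the close pairs and the comparisons of days within a treatment were added after the data were seen. The members and lists were chosen with earlier results of these data known. Of the list genes, 4 were matched through an older symbol.

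Named genes were, per day, up to 10 called members with the largest differences and the 4 with the smallest p, a fixed set of members, the 5 steepest and 5 flattest member slopes, the 10 called other genes steepest in each direction at a mean of at least 10 CPM, and up to 4 called genes with the smallest p per list. Others are marked as picked with their values in view, or are named because a list held few called genes. Starts and promoters are RefSeq's on GRCr8, another build than the files', and were matched by symbol. Ribosomal protein genes have many near-identical copies, so the division of reads between copies is uncertain. Names without an identifier of their own, among them a list of nuclear noncoding RNAs, were not analysed here. Results of some genes that the rule names are not reported here.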

Additional observations from a re-analysis of the deposited data

Results flagged for a closer look

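The 38 members whose values are given here, the ribosomal protein level and the share of counts in members were looked at. A single library far from the other 7 of its group was found in 16 of 240 sets of 8 values. Chance gives about 1 in 20 for independent sets. These sets share libraries, the members rise and fall together, and some members were picked with their values in view. The count of 16 therefore cannot be set against that rate. Exposed day 27 library 2 had the highest share of counts in members, 2.72% against at most 2.46% in the others, and the highest Rpsa, Rpl22l1, Rpl35a and Rpl31 of its group, at 803, 58.0, 82.4 and 339 CPM. Air day 7 library 8 had the highest Rps29, Rps15, Rpl39 and Rpl34 of its group, at 323, 285, 80.8 and 147 CPM. Exposed day 1 library 8 had the highest Rpl26, Rpl31 and Rpl37a of its group, at 567, 303 and 496 CPM. Rpl37 reached 58.1 CPM in exposed day 1 library 3, against at most 24.6 CPM in the others, and 67.1 CPM in exposed day 27 library 4, against at most 26.9 CPM. The rest were Rps2 at 469 CPM in air day 7 library 5 and Rpl30 at 139 CPM in air day 27 library 2, the lowest of its group.

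The exposure effect on Rps2 differed between day 27 and day 1 by -0.38 log2 units (edgeR adjusted p = 0.0405), by a test of the difference itself. The call was lost with the close pairs of libraries summed and without those libraries.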

How the results depend on the processing

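At days 1 and 7 the counts of called members were 0 under every alternative run, and leaving out 1 library moved the median log2 fold change between -0.09 and -0.03 at day 1 and between -0.02 and 0.01 at day 7. The day 1 median of -0.06 was 0.01 with 1 surrogate variable and -0.10 once log2 library totals entered the fit. At day 27 the 36 members lower became 55 in the fit of all 48 libraries and 7 with 1 surrogate variable. They became 2 with the close pairs summed and 0 without the libraries of the close pairs. Over all genes 473 lower became 1211, 40, 21 and 0 in these fits. Without the libraries of the close pairs no gene of 14309 was called. In that fit 44 members had an unadjusted p under 0.05, against 2721 genes. Leaving out 1 library gave 0 to 57 members and 5 to 1018 genes lower among all tested, and the members' median ranged from -0.26 to -0.19. With the surrogate variable the median was -0.12. The cause was not tested. The other alternatives gave 27 to 46 members lower, against 299 to 877 of all genes tested, and 0 members higher. The 1 member with a different effect at day 27 and day 1 became 0 with the close pairs summed or left out. Other genes that rose and fell with the ribosomal protein level numbered 742 and 1447 in the exposed libraries alone, and otherwise 2120 to 3128 and 2403 to 3126. No named member called at day 27 changed sign. Of the named members not called, Rplp2 ran from -0.23 to 0.02, Rpl4 from -0.09 to 0.01, Rpl37 from -0.29 to 0.22 and Rps4y2 from -0.01 to 0.45 over the alternatives (log2 fold change). No paired analysis was possible because animal numbers are not shared between groups. The lowest members, near 10 CPM, rest on the fewest counts.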
